A study of Mus musculus with 4 samples.

Results

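The genes described here encode enzymes and transporters that burn fatty acids, in mitochondria and in peroxisomes, in the fat pad of Nck2 knockout mice. They were chosen by gene symbol from a list of 34, drawn up with earlier results of these data known. All 34 were found among the 39179 genes of the deposited table, each in a single row. By the step they serve, 21 were counted as mitochondrial and 13 as peroxisomal. All 34 passed the filter on low values, a mean normalized read count of 10 or more over the 4 libraries.

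Polyadenylated RNA from epididymal white adipose tissue was sequenced in 2 libraries from Nck2+/+ mice (WT) and 2 from Nck2-/- mice (KO). The tissue is the fat pad beside the epididymis, and both groups were on a mixed genetic background. Nck2 encodes an adaptor protein that couples activated receptors to the actin cytoskeleton. The labels give no age, no altered exon and no statement that replicates came from separate animals, so p-values measure only the spread between these libraries, which may be technical. The design asks which transcripts of this tissue differ between the genotypes.

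Fatty acid oxidation shortens an acyl chain by repeated rounds of dehydrogenation, hydration, a second dehydrogenation and thiolysis. Mitochondria take up most chains through the carnitine shuttle and pass the electrons to the respiratory chain, whereas peroxisomes take very long and branched chains, pass the electrons of the first step to oxygen and make hydrogen peroxide. White adipocytes mainly store fatty acids, and both routes run there at a lower rate than in liver, heart or brown fat. Many genes of both routes are textbook targets of the peroxisome proliferator-activated receptors (PPARs).

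Values below are normalized read counts, that is, reads scaled by the size factor of each library. A fold change is KO minus WT on the scale log2(normalized count + 1), with its standard error (SE) from limma over n = 2 libraries per group. A gene was said to have risen or fallen where its limma p-value, adjusted by the Benjamini-Hochberg method over 16710 genes, was under 0.05. Between 31831904 and 37980391 reads per library fell in genes. Nck2 itself was at 1279 and 1667 across WT and at 1076 and 947 in KO, so both KO libraries lay below both WT libraries. Its fold change was -0.53 (SE 0.16) with an adjusted p of 0.0509 in limma. The authors' deposited fold change for Nck2 was -0.54, with an adjusted p of 0.0208 by their Wald test. The labels do not name the altered part of Nck2, so its total count is no check of them.

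The WT and KO libraries differed widely in tissue content, and this stands beside every result that follows. All 23 adipocyte markers were detected in every library, and they took 3.04% and 2.08% of the WT reads against 6.56% and 7.05% of the KO reads. Of these 23, 17 rose and 0 fell, with a median fold change of 1.68. The 26 male tract markers took 1.28% and 1.12% of the WT reads and 0.000358% and 0.000313% of the KO reads, and 14 of them were at 0 in both KO libraries, among them Lcn5, Defb2 and Gpx5. Most of the WT share came from Crisp1, at 343811 and 334537 in the WT libraries against 108 and 93.7 in KO. Smooth muscle markers took 1.72% and 2.3% of the WT reads against 0.135% and 0.148% of the KO reads, with Myh11 at 159714 and 229497 against 2282 and 3267. Macrophage markers took 0.158% and 0.156% against 0.294% and 0.259%, and 19 of 20 rose. In bulk tissue, more cells of a type and more RNA per cell cannot be told apart, and the part of tissue content in the values below was not tested.

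**Figure D1:**
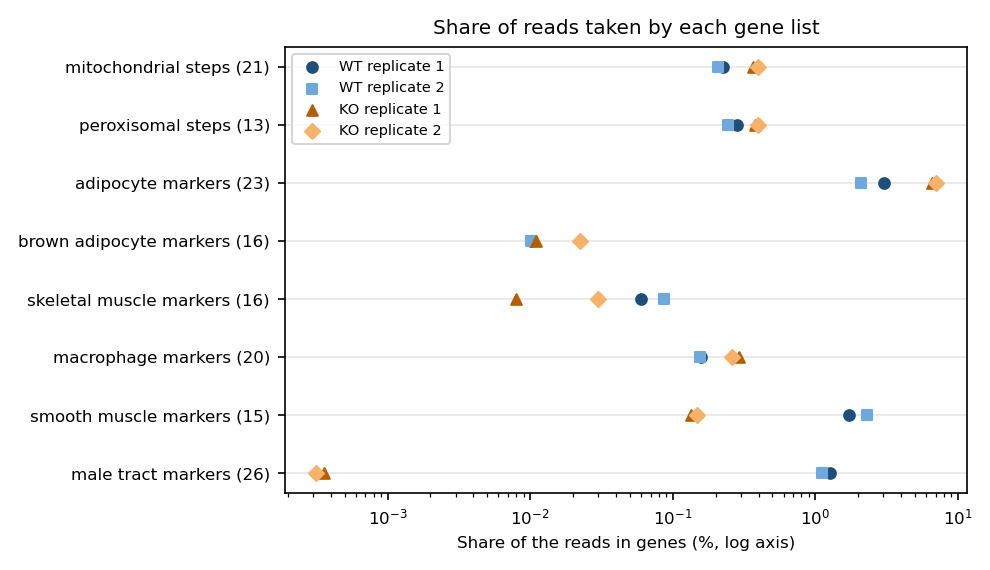
Share of the reads in genes (percent, log axis) taken by each gene list, with the number of genes in brackets. One symbol stands for one library. Both member groups and the adipocyte markers took a larger share in both KO libraries than in either WT library, while the male tract and smooth muscle markers took a smaller one.

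The upstream regions of Acaa1b, Cat and Etfa are shown because these genes rose and because those of Cat and Etfa hold an approximate PPAR-type element. They are the 250 bases before the transcription start from RefSeq (GRCm38.p6), written 5′ to 3′ on the minus strand, which is the strand of all 3 genes. Acaa1b lies at chr9:119157094-119157343, Cat at chr2:103485154-103485403 and Etfa at chr9:55512244-55512493. Capitals mark matches to 4 motifs on either strand.
Acaa1b: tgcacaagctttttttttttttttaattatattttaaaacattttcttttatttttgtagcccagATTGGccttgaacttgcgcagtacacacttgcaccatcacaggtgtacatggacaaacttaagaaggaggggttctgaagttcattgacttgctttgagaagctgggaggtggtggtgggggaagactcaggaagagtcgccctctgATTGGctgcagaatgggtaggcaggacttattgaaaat
Cat: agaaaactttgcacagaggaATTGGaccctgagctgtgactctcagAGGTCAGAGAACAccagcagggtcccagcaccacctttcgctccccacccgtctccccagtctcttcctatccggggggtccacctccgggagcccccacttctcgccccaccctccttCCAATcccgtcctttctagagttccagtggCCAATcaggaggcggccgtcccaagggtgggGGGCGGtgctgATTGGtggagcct
Etfa: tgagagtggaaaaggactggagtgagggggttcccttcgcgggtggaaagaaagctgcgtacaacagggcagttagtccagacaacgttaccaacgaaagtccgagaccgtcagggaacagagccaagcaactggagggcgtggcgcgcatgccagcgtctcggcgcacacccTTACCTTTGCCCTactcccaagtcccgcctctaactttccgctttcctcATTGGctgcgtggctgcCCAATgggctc

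The motifs were a direct repeat of AGGTCA with 1 base between its 2 copies, allowing up to 2 mismatches, to which PPAR and RXR dimers bind, the CCAAT box (CCAAT), the GC box (GGGCGG) and the TATA box (TATAAA). A match is a description of letters and not a binding site. RefSeq windows were found for 28 of the 34 genes, 29 windows in all. The direct repeat was met in 2 of the 29 windows (6.9%), those of Cat and Etfa, against 3.24% of 32851 windows of all genes. In Cat it began 204 bases before the start, and in Etfa 77 bases before it on the opposite strand. A CCAAT box was present in 14 of the 29 windows (48.3%, against 33.8% of all windows), a GC box in 18 (62.1%, against 32.7%) and a TATA box in 0 (against 12.4%). In the Acaa1b window the only matches were 2 CCAAT boxes. No CCAAT, GC or TATA match overlapped the direct repeats shown.

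Transcripts of the oxidation genes were more abundant in KO. Of the 34 genes, 23 rose, 2 fell and 9 did not pass, whereas 22.4% of all 16710 genes rose and 24.4% fell. Because the list was drawn up with earlier results of these data known, that contrast is only a description. The median fold change was 0.83, against -0.01 over all genes tested. Both KO libraries lay above both WT libraries for 29 genes and below them for 4, and only Ehhadh overlapped, where 38.9% and 40.6% of all genes did so in the 2 directions. The median was 0.85 below that of the adipocyte markers, and only Acad11 and Acaa1b exceeded the adipocyte median. By the authors' deposited table, 24 of the 34 rose and 2 fell (18.8% and 21.7% of 19091 genes), and the call differed from limma's for 1 gene, Cpt2. Leaving out WT replicate 2 reduced the number that rose to 4 and the number that fell to 1, where 3.14% and 6.35% of all genes did so. Leaving out WT replicate 1 reduced them to 15 and 1, where 7.21% and 9.84% did. Directions were kept for all 34 genes when WT replicate 1 or KO replicate 1 was omitted, and for 33 when either replicate 2 was omitted, the exception each time being Ehhadh (-0.21 without that of WT, -0.07 without that of KO).

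**Figure D2:**
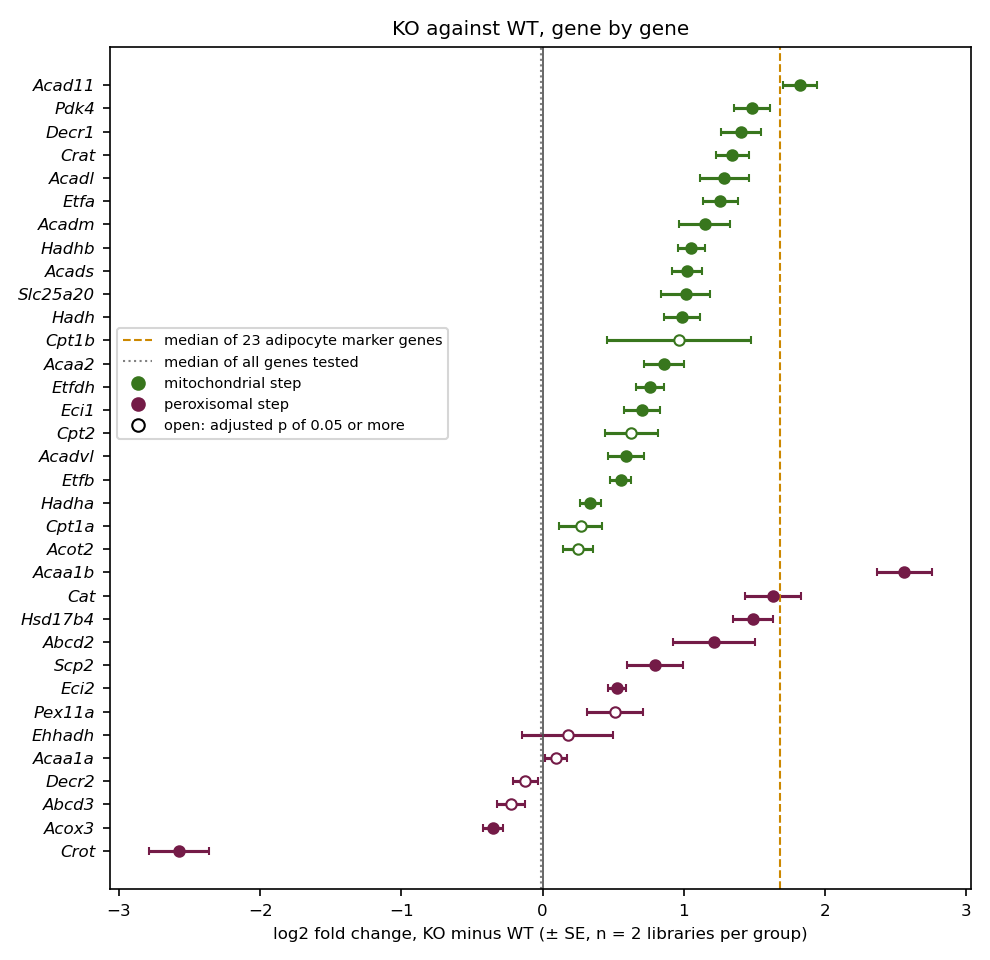
Fold change of each gene (log2, KO minus WT) with its SE, n = 2 libraries per group, in green for mitochondrial and in purple for peroxisomal steps. Filled symbols passed the adjusted p of 0.05, and the dashed and dotted lines mark the medians of the adipocyte markers (1.68) and of all genes tested (-0.01). All mitochondrial genes lie above 0, and the peroxisomal genes spread from -2.58 for Crot to 2.56 for Acaa1b.

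The mitochondrial genes moved in one direction. Of 21, 17 rose (81.0%), 0 fell and 4 did not pass (Cpt1a, Cpt1b, Cpt2 and Acot2). Over all genes, 22.4% rose and 24.4% fell. All 21 had both KO libraries above both WT libraries, against 38.9% of all genes. The median fold change of the 21 was 0.99, with a range from 0.25 for Acot2 to 1.82 for Acad11. Without Acad11 and Crat, whose products are reported in more than one compartment, 15 of 19 rose and 0 fell. As a whole they took 0.226% and 0.209% of the WT reads and 0.364% and 0.398% of the KO reads. Leaving out WT replicate 2 left 3 that rose (Crat, Etfa and Pdk4), and leaving out WT replicate 1 left 8.

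The carnitine shuttle carries long chains into the mitochondrion, and neither form of its entry enzyme passed. Cpt1a, the liver-type carnitine palmitoyltransferase and the rate-limiting step of entry, was at 3606 and 4804 across WT and at 5039 and 5007 in KO. The groups did not overlap, but the gap between KO and WT replicate 2 was smaller than the gap between the WT libraries. Its fold change of 0.27 (SE 0.15, adjusted p = 0.208 in limma) did not pass. It was 0.06 (adjusted p = 0.441) without WT replicate 1 and 0.48 (adjusted p = 0.0586) without WT replicate 2. Cpt1b, the muscle-type isoenzyme, was at only 14.3 and 8.4 across WT and at 15.9 and 31.2 in KO. Per kilobase of exon, Cpt1b made up 0.889% and 0.394% of both isoenzymes in WT and 0.711% and 1.39% in KO, so Cpt1a supplied nearly all of the transcript. Those shares overlapped between the groups (exact two-sided permutation test, p = 0.667, where 2 against 2 libraries cannot go below 0.333). Of the 50-base stretches of Cpt1b transcripts, 80.4% also occur in a read-through gene, Gm44502, which has no row among the deposited genes. How far that sharing affects the Cpt1b count is not known.

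Later members of the shuttle were higher in KO. Cpt2, which rebuilds the acyl-CoA inside the mitochondrion, was at 3049 and 2261 in the WT libraries against 3662 and 4506 in KO, and its adjusted p of 0.0520 in limma missed the threshold (fold change 0.63, SE 0.19). DESeq2 on the recovered reads gave 0.0111 and upper-quartile scaling also brought it past the threshold. The fold change of Cpt2 was 0.41 (adjusted p = 0.233 in limma) without WT replicate 2 and 0.48 (0.175) without KO replicate 2. Slc25a20, the carrier that exchanges acylcarnitine for carnitine across the inner membrane, rose from 1196 and 1117 to 1984 and 2745. That is a fold change of 1.01 (SE 0.17, adjusted p = 0.0120 in limma), and the call was lost when either WT library was omitted (1.06, adjusted p = 0.114 without replicate 1, and 0.96, adjusted p = 0.143 without replicate 2). Crat, the acetyltransferase that buffers acetyl-CoA as acetylcarnitine, was well separated between the groups. It rose 2.53-fold, from 5190 and 4248 to 11592 and 12276 (fold change 1.34 on the log2 scale, SE 0.12, adjusted p = 0.00250 in limma), and passed with any 1 library left out.

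Each of the 5 acyl-CoA dehydrogenase genes, which open the oxidation cycle for chains of different length, rose. Acadm, for medium chains, was at 7303 and 6255 across WT and at 12881 and 17403 in KO, a fold change of 1.15 (SE 0.18). Acadl, for long chains, was at 4549 and 3536 against 8815 and 10879 (1.29, SE 0.17). They rose 2.23-fold and 2.44-fold, and the share of Acadl among the 2 per kilobase of exon was nearly level, at 54.9% and 52.5% in WT and 57.2% and 55.0% in KO (exact two-sided permutation test, p = 0.333, the smallest possible). Acads, for short chains, rose from 2478 and 2145 to 4436 and 4938 (1.02, SE 0.10). Acadvl, the very-long-chain enzyme of the inner membrane, had the smallest fold change of the 5, from 4606 and 3926 to 5903 and 6982 (0.59, SE 0.13).

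Acad11, whose product acts on long chains and on hydroxylated acids, had the greatest rise among the mitochondrial genes. It was at 3154 and 2895 across WT and at 9684 and 11820 in KO, a 3.55-fold difference (fold change 1.82 on the log2 scale, SE 0.12). Every KO value was more than 3 times the WT mean of 3025. Adjusted p-values of the 5 dehydrogenases in limma ran from 0.00142 for Acad11 to 0.0224 for Acadvl. Without WT replicate 2 they ran from 0.0545 for Acad11 to 0.160 for Acadvl and none of the 5 passed, with fold changes between 0.48 and 1.76. Acadm, Acadl and Acadvl did not pass without WT replicate 1 either (adjusted p = 0.0859, 0.0533 and 0.0886), nor Acadvl without KO replicate 2 (fold change 0.47, adjusted p = 0.0761). Exons of Dvl2 on the opposite strand cover 42.9% of the Acadvl exons. Dvl2 was at 602 and 669 across WT and at 466 and 411 in KO.

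The 4 genes of hydration, the second dehydrogenation and thiolysis also rose, by unequal amounts. Hadha and Hadhb encode the 2 subunits of the mitochondrial trifunctional protein, which form one complex in the inner membrane. Hadha was at 6227 and 6059 across WT and at 7467 and 8090 in KO, a fold change of 0.34 (SE 0.07, adjusted p = 0.0237 in limma). Hadhb went from 3109 and 2841 to 5807 and 6563, a fold change of 1.05 (SE 0.09, adjusted p = 0.00251 in limma). The ratio of Hadhb to Hadha counts was 0.499 and 0.469 in WT and 0.778 and 0.811 in KO, a shift larger than the spread within either group (exact two-sided permutation test, p = 0.333, the smallest possible). That pair was singled out after its values were seen. The genes are divergent neighbours on chromosome 5, with RefSeq starts 273 bases apart on opposite strands (GRCm38.p6, 30154980 and 30155253). Of the 50-base stretches of Hadhb transcripts, 56.6% also occur in the pseudogene Gm13910, which was at 388 and 354 across WT and at 690 and 880 in KO, so the level of Hadhb is uncertain.

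Hadh, the short-chain hydroxyacyl-CoA dehydrogenase, rose from 6825 and 5805 to 11561 and 13510 (fold change 0.99, SE 0.13). Acaa2, the mitochondrial thiolase that releases acetyl-CoA, rose from 2752 and 2778 to 4408 and 5712 (0.86, SE 0.14). The WT libraries were almost equal for Acaa2, and both KO libraries stood well above them. Their adjusted p-values in limma were 0.00588 and 0.0105. Without WT replicate 2 the adjusted p-values of Hadha, Hadhb, Hadh and Acaa2 were 0.139, 0.0603, 0.0813 and 0.126, and without WT replicate 1 those of Hadha, Hadh and Acaa2 were 0.108, 0.0551 and 0.114. Hadha did not pass without KO replicate 2 (fold change 0.28, adjusted p = 0.0966).

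Auxiliary enzymes handle double bonds and free the acid from coenzyme A. Decr1, the dienoyl-CoA reductase for polyunsaturated chains, rose from 3998 and 3218 to 8794 and 10266, which is 2.64-fold (fold change 1.41 on the log2 scale, SE 0.14, adjusted p = 0.00335 in limma). Eci1, the isomerase for unsaturated chains, rose from 1845 and 1626 to 2551 and 3120 (0.70, SE 0.13, adjusted p = 0.0147 in limma). Acot2, a mitochondrial acyl-CoA thioesterase, was nearly level at 312 and 307 against 383 and 354 (0.25, SE 0.11, adjusted p = 0.122 in limma). Of its 50-base stretches 24.5% also occur in the cytosolic paralog Acot1, which was at 198 and 160 across WT and at 10.3 and 8.9 in KO. Without WT replicate 2 Decr1 (adjusted p = 0.0590) and Eci1 (0.143) did not pass, nor did Eci1 without WT replicate 1 (0.0933).

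Electrons from the dehydrogenases pass through the electron transfer flavoprotein to ubiquinone, and all 3 genes of that route rose. Etfa, its alpha subunit, went from 5294 and 4338 to 10969 and 11995 (fold change 1.26, SE 0.12). Etfb, its beta subunit, went from 3830 and 3974 to 5493 and 5970 (0.55, SE 0.07), a smaller difference than that of its partner. Etfdh, the oxidoreductase that receives the electrons, went from 2843 and 2468 to 4323 and 4665 (0.76, SE 0.10). Adjusted p-values in limma were 0.00306, 0.00627 and 0.00563. Without WT replicate 2 they were 0.0494, 0.0746 and 0.0637, and without WT replicate 1 that of Etfb was 0.0689. Of the Etfb exon bases, 58.2% are shared with Gm45233 and Mir7051 in GENCODE M21. Gm45233 has no row among the deposited genes, and Mir7051 was at 0 in every library. How far the overlap affects the Etfb count is not known.

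Pdk4, the kinase that shuts off pyruvate dehydrogenase when fat is burned, rose 2.78-fold. It was at 1199 and 1492 across WT and at 3882 and 3610 in KO (fold change 1.48 on the log2 scale, SE 0.13, adjusted p = 0.00228 in limma), and it passed with any 1 library left out. Unlike most of the genes described here, it was higher in WT replicate 2 than in WT replicate 1.

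**Figure D3:**
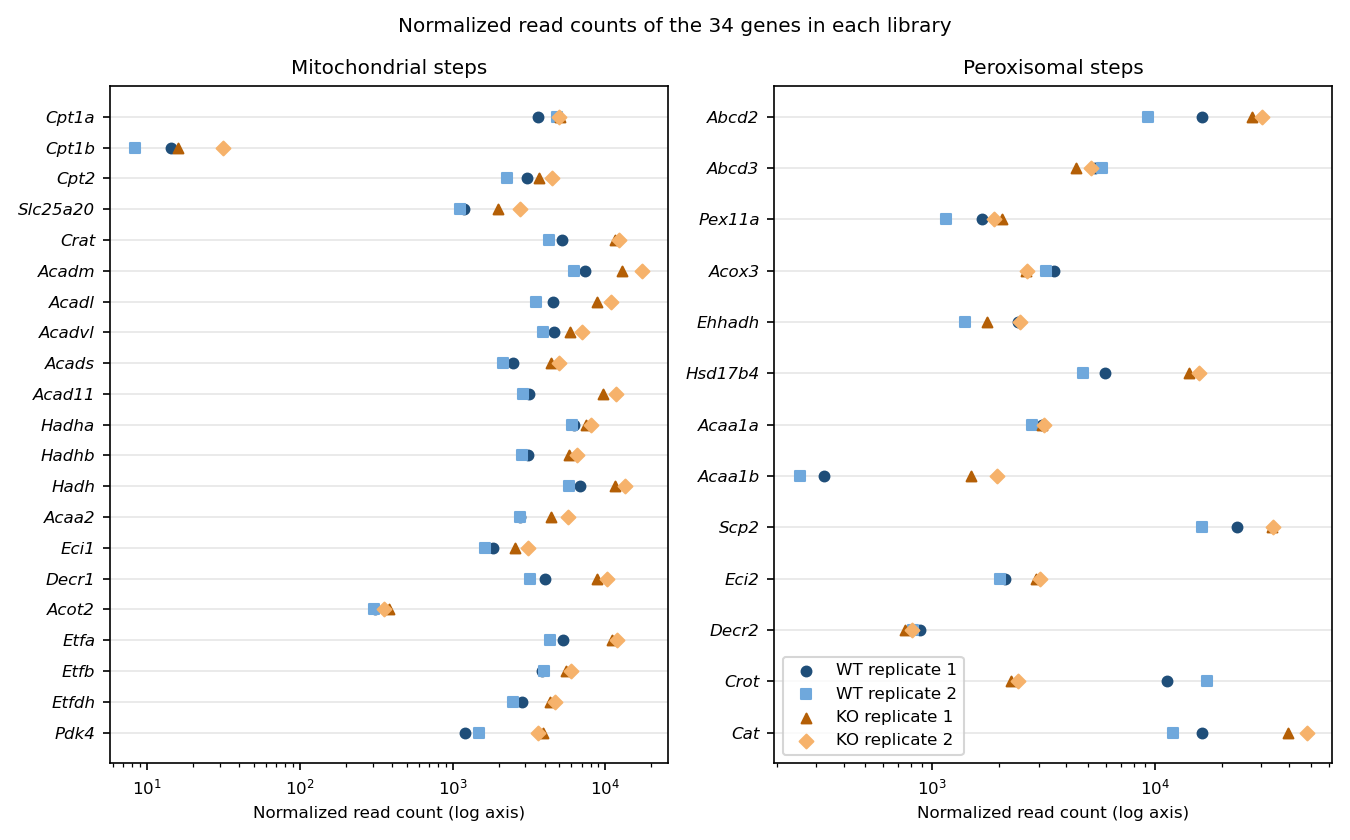
Normalized read count (log axis) of each gene in each library, mitochondrial steps on the left and peroxisomal steps on the right. One symbol stands for one library. The KO symbols lie to the right of the WT symbols in every mitochondrial row, whereas in the peroxisomal rows they lie to the left for Crot, Acox3, Abcd3 and Decr2 and overlap for Ehhadh.

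The peroxisomal genes went in both directions. Of 13, 6 rose (Abcd2, Hsd17b4, Acaa1b, Scp2, Eci2 and Cat), 2 fell (Acox3 and Crot) and 5 did not pass, with a median fold change of 0.51. The shares that rose and fell were 46.2% and 15.4%, against 22.4% and 24.4% of all genes. Both KO libraries were above both WT libraries for 8 genes and below them for 4, where 38.9% and 40.6% of all genes were so placed. The peroxisomal genes took 0.285% and 0.243% of the WT reads and 0.381% and 0.4% of the KO reads. Without Eci2, which is also reported in mitochondria, 5 of 12 rose and 2 fell. Leaving out WT replicate 2 left 1 that rose (Hsd17b4) and a median of 0.24, and leaving out any 1 library left only Crot among those that fell. The difference in median between the mitochondrial and peroxisomal genes was not tested.

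Entry into the peroxisome runs through transporters of the ABC family. Abcd2, which carries very long and polyunsaturated acyl-CoAs, was at 16297 and 9331 across WT and at 27172 and 30195 in KO (fold change 1.22, SE 0.29, adjusted p = 0.0294 in limma). Abcd3, which carries branched and dicarboxylic acyl-CoAs, was at 5371 and 5774 across WT and at 4423 and 5139 in KO (-0.22, SE 0.10, adjusted p = 0.136 in limma). Per kilobase of exon, Abcd2 made up 77.1% and 64.2% of the pair in WT and 87.2% and 86.7% in KO (exact two-sided permutation test, p = 0.333, the smallest possible). The WT libraries differed from each other in this share by more than the KO libraries did. Pex11a, a membrane protein that promotes peroxisome division, was at 1668 and 1146 against 2053 and 1895, and did not pass (0.51, SE 0.20, adjusted p = 0.0969 in limma). It passed without WT replicate 1 (0.78, adjusted p = 0.0482), whereas its fold change was 0.24 (adjusted p = 0.187) without WT replicate 2. The call of Abcd2 was lost without WT replicate 2 (0.81, adjusted p = 0.0801), without KO replicate 1 (0.0783) or without KO replicate 2 (0.108).

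Within the peroxisomal oxidation cycle the genes of successive steps differed in direction. Acox3, an acyl-CoA oxidase for branched chains, fell from 3508 and 3240 to 2630 and 2651 (fold change -0.35, SE 0.07, adjusted p = 0.0173 in limma), and its adjusted p was between 0.065 and 0.073 with any 1 library left out. Ehhadh, the bifunctional enzyme of straight chains, overlapped between the groups, at 2423 and 1407 in WT and 1757 and 2482 in KO (0.18, SE 0.32, adjusted p = 0.675 in limma). Hsd17b4, the bifunctional enzyme of branched and very long chains, rose from 5948 and 4735 to 14126 and 15782. That was a 2.8-fold difference (1.49 on the log2 scale, SE 0.14, adjusted p = 0.00278 in limma), and it passed with any 1 library left out. Scp2, whose longer product is the thiolase of branched chains and whose shorter one binds sterols, rose from 23201 and 16197 to 33541 and 33730 (0.80, SE 0.20, adjusted p = 0.0336 in limma). Its call was lost without WT replicate 2 (0.54, adjusted p = 0.106), without KO replicate 1 (0.101) or without KO replicate 2 (0.111). Of the 50-base stretches of Scp2, 37.5% also occur in a pseudogene.

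The 2 genes of the straight-chain peroxisomal thiolase separated. Acaa1a was at 3096 and 2788 across WT and at 3102 and 3179 in KO (fold change 0.10, SE 0.08, adjusted p = 0.356 in limma), so the KO libraries were scarcely above WT replicate 1. Acaa1b, the paralog known for its strong response to peroxisome proliferators in rodent liver, was at 327 and 254 across WT and at 1492 and 1956 in KO. It rose 5.93-fold (2.56 on the log2 scale, SE 0.20, adjusted p = 0.00184 in limma), the greatest rise of the 34 genes. Per kilobase of exon it made up 19.2% and 17% of the pair in WT and 52% and 58.1% in KO (exact two-sided permutation test, p = 0.333, the smallest possible). That share depends on the annotated exon lengths, 4414 bases for Acaa1a and 1962 for Acaa1b. In counts not divided by length, Acaa1b made up a mean of 8.95% in WT and 35.3% in KO, so it stayed the smaller of the pair. Its call was lost without WT replicate 2 (fold change 2.38, adjusted p = 0.0541).

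How well reads can separate the 2 thiolase genes bears on that split. Their coding sequences (GENCODE M21, 1272 bases each) are 96.5% identical, with 44 differences and an identical run of 327 bases. Of 1223 possible 50-base windows, 464 are identical and 291 (23.8%) differ at 3 or more places. The stretch richest in differences, coding bases 453 to 602 with 16 of them, is printed to show where reads can tell the genes apart. Capitals mark the bases that differ.
Acaa1a: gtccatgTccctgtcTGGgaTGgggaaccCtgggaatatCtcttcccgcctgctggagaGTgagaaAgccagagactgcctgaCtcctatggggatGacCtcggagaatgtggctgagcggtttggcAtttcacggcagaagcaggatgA
Acaa1b: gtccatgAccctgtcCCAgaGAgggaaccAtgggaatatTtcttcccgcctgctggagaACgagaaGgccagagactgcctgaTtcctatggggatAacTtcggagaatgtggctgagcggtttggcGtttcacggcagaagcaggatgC

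Reads from the identical parts could be assigned to either gene or dropped, so the level of each is uncertain. The Acaa1b exons also overlap those of Dlec1 on the opposite strand over 11.4% of their length, and Dlec1 was at 235 and 295 across WT and at 66.5 and 92.6 in KO, the reverse of Acaa1b.

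Of the auxiliary peroxisomal enzymes, Crot had the greatest fall of the 34 genes. Crot encodes carnitine octanoyltransferase, which prepares the shortened chains for export to mitochondria. It was at 11325 and 17089 across WT and at 2254 and 2415 in KO, so that WT exceeded KO 6.09-fold (fold change -2.58 on the log2 scale, SE 0.21, adjusted p = 0.00214 in limma). It passed with any 1 library left out, with fold changes between -2.87 and -2.28. The WT library with more Crot, replicate 2, was also the one with more smooth muscle reads (2.3% against 1.72%) and fewer adipocyte marker reads (2.08% against 3.04%), while the male tract share was higher in WT replicate 1. The part of these tissues in the Crot difference was not tested. Per kilobase of exon Crot ranked 5th of the 34 in WT and 30th in KO. Eci2, an isomerase for unsaturated chains, rose from 2123 and 2004 to 2918 and 3028 (0.53, SE 0.07, adjusted p = 0.00542 in limma), or 0.49 with an adjusted p of 0.0638 without WT replicate 2. Decr2, the peroxisomal dienoyl-CoA reductase, was at 881 and 822 against 751 and 815 and did not pass (-0.12, SE 0.09, adjusted p = 0.303 in limma).

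Cat, the catalase that destroys the hydrogen peroxide made by the oxidases, rose from 16197 and 12077 to 39272 and 47841. The difference was 3.08-fold (fold change 1.63 on the log2 scale, SE 0.20, adjusted p = 0.00488 in limma), close to the adipocyte marker median of 1.68, and without WT replicate 2 its adjusted p was 0.0713 (fold change 1.42). Per kilobase of exon, Cat was the most abundant of the 34 in KO and the second in WT after Scp2. Scp2 and Cat together led in both groups, at 5664 and 5410 normalized counts per kilobase across WT and at 9671 and 16669 in KO. The next in KO were Etfa at 6257, Etfb at 4924 and Acadl at 4911. Cpt1b was last in both groups, at 3.36 in WT and 6.99 in KO. These lengths are of all annotated exons of a gene, so a gene with long, little-used exons appears too low.

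**Figure D4:**
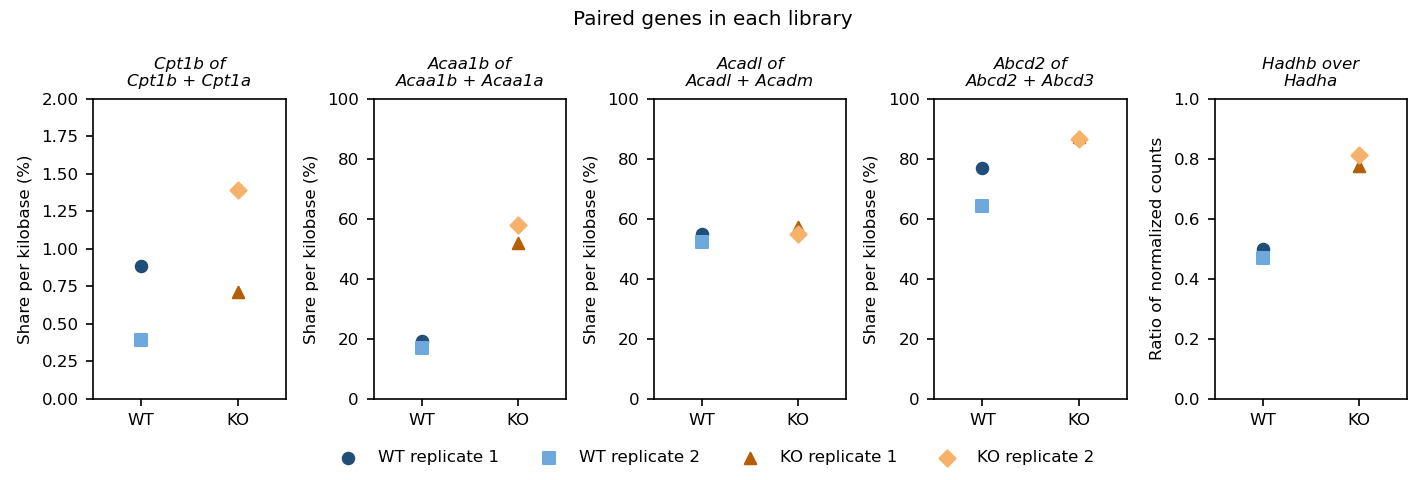
Share of one gene in a pair per kilobase of exon (percent, first 4 panels, with the first on a scale to 2%) and the ratio of Hadhb to Hadha normalized counts (last panel). One symbol stands for one library. Acaa1b went from 17% and 19.2% in WT to 52% and 58.1% in KO and the Hadhb ratio from 0.469 and 0.499 to 0.778 and 0.811, while the Acadl share stayed between 52.5% and 57.2%.

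Libraries of the same genotype also differed. In WT replicate 1 28 of the 34 genes were higher than in WT replicate 2, against 49.7% of all genes tested, and 22 of the 23 adipocyte markers were. The 6 exceptions were Cpt1a, Acaa2, Etfb, Pdk4, Abcd3 and Crot. The median difference of WT replicate 2 from WT replicate 1 was -0.21 for the 34 genes and -0.50 for the adipocyte markers on the log2 scale. In KO replicate 2 30 of the 34 genes were higher than in KO replicate 1, against 53.1% of all genes, with a median difference of 0.16. The 4 exceptions were Cpt1a, Acot2, Pdk4 and Pex11a.

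KO replicate 2 also held more transcripts of 2 tissues that burn fatty acids at a high rate. All 16 brown adipocyte markers were higher there than in KO replicate 1, with a summed share of 0.0225% against 0.011%, and 0.0101% in each WT library. Zic1 and Lhx8 were at 0 in all the other libraries and at 3.3 and 7.8 there. Between the genotypes, 2 of the 14 brown adipocyte markers tested rose and 2 fell (14.3% each, against 22.4% and 24.4% of all genes). Of the 2 most abundant markers on that list, Ebf2 rose from 1008 and 866 to 1928 and 1976, and Kcnk3 was at 1171 and 1471 across WT and at 921 and 995 in KO. Ucp1, chosen after its values were seen, was at 21.4 and 5.6 in WT, at 228 in KO replicate 1 and at 2842 in KO replicate 2. That gene alone held much of the difference in summed share between the KO libraries. All 16 skeletal muscle markers were higher in KO replicate 2 as well, with summed shares of 0.00791% and 0.0301% in the KO libraries and 0.0603% and 0.0868% in the WT libraries. Between the genotypes, 2 of these 16 markers rose and 2 fell (12.5% each, against 22.4% and 24.4% of all genes). Both KO libraries lay above both WT libraries for 6 and below them for 6, where 38.9% and 40.6% of all genes did so. These counts are therefore no result about skeletal muscle markers. The median fold change of the 16 markers was 0.16. The most abundant were Acta1, at 9138 and 13526 in WT and 811 and 1955 in KO, and Ckm, at 3249 and 4914 in WT and 11.2 and 899 in KO. The marker with the highest fold change was Myh4, at 3.1 and 0 in WT and 15 and 1685 in KO (6.35, adjusted p = 0.0936 in limma). Without KO replicate 2, 19 of the 34 genes rose (14.3% of all genes did) and 1 fell, and the median of the mitochondrial genes was 0.78 in place of 0.99. Whether these tissues contribute to the values of the 34 genes was not tested.

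Other genes of the 2 routes went in both directions, and are set beside the 22.4% of all genes tested that rose and the 24.4% that fell. Of 30 further genes of mitochondrial fatty acid and acyl-CoA oxidation, 13 rose (43.3%), 5 fell (16.7%) and 12 did not pass. Acsl1, the main enzyme of adipocytes that activates fatty acids, rose from 26405 and 24562 to 47217 and 51466 (fold change 0.95, adjusted p = 0.00579 in limma). Hibch, of valine breakdown, and Oxct1, which activates acetoacetate, rose by 1.20 and 0.92. The greatest falls were in Bdh1, a ketone body dehydrogenase, from 1369 and 1741 to 9.4 and 15.6, in Slc25a29, a carrier of basic amino acids (-1.58), and in Cpt1c, a brain-type paralog of Cpt1a (-0.87). Of 37 further genes of peroxisomal metabolism, 32 were tested, of which 17 rose (53.1%), 4 fell (12.5%) and 11 did not pass. Gnpat, the first enzyme of ether lipid synthesis, rose from 6358 and 5090 to 14682 and 14296 (1.35, adjusted p = 0.00283 in limma). Acox2 and Nudt7, a hydrolase of coenzyme A (1.16), were the other leading rises. Acox2 rose from a very low level, 2 and 1.9 across WT, to 15 and 25.7 in KO. Dao, Pipox and Acsl6 had the greatest falls (-4.59, -3.95 and -3.44), all from low levels, of at most 66.2 in any library.

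Of 18 genes of peroxins, which build the organelle, and of other peroxisomal membrane proteins, 8 rose (44.4%, against 22.4% of all genes) and 2 fell (11.1%, against 24.4%), with a median fold change of 0.31. The 8 include Pxmp2 and Pxmp4, which are membrane proteins and not peroxins. Pex16 and Pex13, needed for membrane assembly and protein import, rose by 1.09 (SE 0.21) and 1.08 (SE 0.12), and Pxmp2, a channel of the peroxisomal membrane, by 1.04 (SE 0.22). Pex26 and Pex11g fell by 0.60 and 0.39. Pex16, Pex13, Pxmp2, Pex26 and Pex11g passed in limma, with adjusted p-values from 0.00429 to 0.0272.

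Of 29 regulators of the pathway tested, 8 rose (27.6%) and 4 fell (13.8%), with a median fold change of 0.13. The share that rose was near the 22.4% of all genes, and 24.4% of all genes fell, so the genes named next are single values and not a result about regulators. Pparg, the adipocyte PPAR, rose from 4012 and 3418 to 10452 and 9896 (fold change 1.46, SE 0.10), and it is also one of the 23 adipocyte markers. Rxrg, a dimer partner of the PPARs, rose from 252 and 228 to 707 and 714 (1.57, SE 0.10). Fgf21, a hormone induced by PPARs, was at 2 and 1.9 across WT and at 17.8 and 34.6 in KO (3.13, SE 0.50). Its WT level was very low, so the size of that fold change is uncertain. Esrrg, an estrogen-related receptor, fell from 188 and 174 to 35.6 and 70.3 (-1.83), and Prkaa2, a catalytic subunit of AMP-activated kinase, and Pdk1, a paralog of Pdk4, fell by 0.63 and 0.64. The adjusted p-values of these 6 in limma ran from 0.00137 to 0.0321. Ppara, the PPAR of liver, was looked up after its values were seen and was level, at 213 and 209 in WT and 209 and 232 in KO (0.06, adjusted p = 0.727 in limma). Over the 4 lists 46 of 109 genes rose (42.2%) and 15 fell (13.8%), against 22.4% and 24.4% of all genes. Both numbers were smaller when either WT library or KO replicate 2 was omitted, as they were over all genes.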

How the data were processed

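Polyadenylated RNA of epididymal white adipose tissue was sequenced in 2 WT and 2 KO libraries, with 50-base single reads. The build was GRCm38 and DESeq2 1.4.5, HTSeq 0.5.3, TopHat2 2.0.10 and CASAVA 1.8 are listed, per the submitters' processing notes. Use of strand in counting is not given in those notes. The deposited values are a normalized signal: the authors divided read counts per gene by a size factor (0.8962 to 1.0748), and whole reads were recovered for 100% of values within 0.01. The authors also deposited a table of log2 fold changes with standard errors, a test score (Wald statistic), p-values and adjusted p-values, of which only copies are printed.

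Groups and replicate numbers came from the labels. Genes with a mean of 10 or more (16710 of 39179) were tested on log2(value + 1) with limma 3.58.1 (R 4.3.3, trend) and Benjamini-Hochberg adjustment. The test was also run on simulated counts. That simulation gave all genes the same relative spread and changed few genes, evenly up and down, unlike these data. It therefore gives no error rate for the calls made here. Alternatives used edgeR 4.0.16, DESeq2 1.42.0, other pseudocounts, filters and scalings, a replicate block, and each library left out. Replicates differed by more than sampling noise (chi-square per degree of freedom 52.3 for WT, 36.8 for KO). Exon lengths and overlaps are from GENCODE M21, matched by gene ID for 37607 genes. Members and gene lists were chosen with earlier results of these data known. Of each further list, the text names up to 3 genes with the greatest rise and up to 3 with the greatest fall among those that passed. Of 14 liver markers, checked as another tissue, 8 were tested, of which 1 rose and 3 fell.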

Additional observations from a re-analysis of the deposited data

How the results depend on the processing

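With TMM or upper-quartile scaling, edgeR, DESeq2, a pseudocount of 0.5 or 5, and a filter at a mean of 50 or none, all 25 calls among the 34 genes were kept, and Cpt2 was added under upper-quartile scaling and DESeq2. The mean of 50 or more removed Cpt1b. The calls rested on the number of libraries: with 1 library left out, the genes that rose numbered 4 to 21 in place of 23 (mitochondrial 3 to 17 in place of 17, peroxisomal 1 to 7 in place of 6), and 1 fell in place of 2. For the further pathway genes, 9 to 37 rose in place of 46 and 1 to 13 fell in place of 15. Calls over all genes tested were also fewer with any 1 library left out. Medians of the fold change were 0.64 to 0.96 in place of 0.83 for all 34, 0.78 to 1.11 in place of 0.99 for the mitochondrial genes and 0.24 to 0.57 in place of 0.51 for the peroxisomal genes. Ehhadh turned to -0.21 without WT replicate 2 and to -0.07 without KO replicate 2. With counts not divided by exon length, the rise in the Acaa1b share was 26.3 in place of 36.9 percentage points. Leaving out libraries from the shares of gene pairs was chosen after seeing the data. No share changed direction, but the difference between KO and WT in percentage points went from 16.3 to 9.86 for Abcd2 and from 2.41 to 1.20 for Acadl without WT replicate 2, and from 0.412 to 0.0703 for Cpt1b without KO replicate 2. The Acadl difference was 1.30 without KO replicate 1 and 3.62 without WT replicate 1, and that of Cpt1b was 0.164, 0.659 and 0.753 without WT replicate 2, WT replicate 1 and KO replicate 1.

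Replicate numbers do not pair the libraries by any label, and the deviations of same-numbered libraries from their group means had a correlation of -0.00904. With the replicate block, 20 of the 34 genes rose and 2 fell, where 16.4% and 20% of all genes did so. Cpt2 was at an adjusted p of 0.0983 with the block. The calls of Acadvl (adjusted p = 0.0564 in limma), Hadha (0.0699) and Scp2 (0.0554) were lost with it, and the further pathway genes numbered 37 higher and 14 lower.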
